A study of Mus musculus with 6 samples.

Results

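6 transcription factor genes set the glandular regions of the cultured mouse stomach apart: Nkx6-3, Pdx1, Onecut2 and Cdx2 had their highest levels in antrum cultures, and Isl1 and Esrrg in corpus cultures. These 6 genes of 15431 were picked by name from the expression table because their levels differed between antrum and corpus columns. The antrum and corpus levels are therefore given as a description, with no test. All 6 were found in the table under their own symbols. Levels are in CPM, the read count of a gene relative to the total of its library, and are compared between libraries and not between genes.

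RNA came from epithelium of the antrum (labelled antrum and pylorus together), the corpus and the forestomach of wild type (WT) mice, all of it cultured and marked p2 in the sample titles. The labels call the antrum and corpus cells 2D cultures and the forestomach cells cultured epithelia. There were 2 libraries per region, 6 in all, with no age, sex or treatment stated. Antrum and corpus cells shared 1 culture protocol, whereas forestomach cells followed another published one, so region and culture conditions cannot be told apart in comparisons with forestomach. Each region carries the sample IDs AT75 and AT76, which no source ties to separate animals or to the columns numbered 1 and 2, so any p-value reflects library-to-library spread alone, possibly technical. In such bulk RNA, fewer cells expressing a gene and less RNA per cell cannot be told apart.

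A transcription factor binds DNA and sets which genes a cell reads. 5 of the genes, all but Esrrg, encode homeodomain proteins, a class that lays out body regions in the embryo and holds regional identity in adult gut epithelium. Pdx1 and Cdx2 belong to the ParaHox genes, a sister cluster of the Hox genes. Pdx1 directs pancreas formation and is needed for gastrin cells of the mouse antrum, Nkx6-3 marks antral epithelium and acts in the same endocrine cells, and Cdx2 drives intestinal identity. Onecut2 is a CUT-homeodomain factor of liver, pancreas and gut endoderm. Isl1 is a LIM-homeodomain factor of endocrine cells, neurons and the embryonic pylorus, and Esrrg is an orphan nuclear receptor that controls mitochondrial and acid secretion genes in tissues of high energy use.

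The steps in the low CPM values put the library totals at 36.9 to 47.7 M reads, of which 14.0 to 18.2 M fell on listed genes. The level of 3 reads, a limit that allows for counting error alone, was 0.063 to 0.0814 CPM. Reads given below are inferred from these steps. Some genes are listed at 0 under a current symbol while an older symbol carries reads, so a value of 0 is given as listed at 0. The regions matched their epithelial markers. The 7 squamous markers summed to 4.11 to 5.56 CPM in antrum, 4.36 to 6.51 CPM in corpus and 13200 to 14380 CPM in forestomach libraries, and the 9 glandular markers to 3884 to 5547, 5678 to 5886 and 25.6 to 28.6 CPM in the same order of regions. The defining products of some mature cells were near 0. Gast, the antral hormone gastrin, was listed at 0 in all 6 libraries, and the acid pump subunit Atp4a had 1.03 and 0.43 CPM in antrum, 0.6 and 0.84 CPM in corpus and 0 and 0.2 CPM in forestomach libraries.

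Nkx6-3 stood at 42.05 and 28.7 CPM in antrum 1 and antrum 2, at 1.84 and 0.06 CPM in corpus 1 and corpus 2, and was listed at 0 in both forestomach libraries. Both antrum libraries were far above both corpus libraries. The corpus libraries differed from each other, with 68 reads in corpus 1 and 3 reads in corpus 2, so corpus 2 was at the limit of 3 reads and did not differ from the forestomach level beyond counting error. The antrum mean was 35.4 ± 9.44 CPM (SD, n = 2) and the corpus mean 0.95 ± 1.26 CPM (SD, n = 2). The spread of the corpus mean exceeded the mean itself. The log2 difference of CPM + 1, antrum minus corpus, was 4.37 (SE 0.42), the highest of the 11891 genes tested.

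Pdx1 stood at 18.02 and 17.16 CPM in the antrum, at 3.5 and 2.43 CPM in the corpus, and was listed at 0 in both forestomach libraries. The levels fell into 3 steps with no overlap, and corpus cultures held the gene well above the read limit, with 129 and 116 reads. The antrum mean of 17.6 ± 0.608 CPM was 5.93 times the corpus mean of 2.97 ± 0.757 CPM (SD, n = 2 each). The log2 difference, antrum minus corpus, was 2.24 (SE 0.24), in place 13 from the top of the genes tested.

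Onecut2 stood at 4.96 and 3.88 CPM in the antrum, at 0.43 and 0.92 CPM in the corpus and at 0.05 and 0 CPM in the forestomach. The order was the same as for Pdx1, antrum over corpus over forestomach, with no overlap between neighbours. The antrum mean of 4.42 ± 0.764 CPM was 6.55 times the corpus mean of 0.675 ± 0.346 CPM (SD, n = 2 each), and the log2 difference was 1.70 (SE 0.23). The corpus values rested on 16 and 44 reads, and the forestomach values on 2 and 0 reads.

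Cdx2 stood at 0.39 and 0.64 CPM in the antrum, which is 15 and 30 reads, and was listed at 0 in both corpus and both forestomach libraries. Both antrum libraries were above the limit of 3 reads, and no library reached the 1 CPM needed for testing. Corpus and forestomach could not be ordered for Cdx2.

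Isl1 had the opposite regional pattern, at 0.03 and 0.02 CPM in the antrum, 6.32 and 8.16 CPM in the corpus, and listed at 0 in both forestomach libraries. Each antrum value was 1 read, against 233 and 389 reads in the corpus libraries. Antrum and forestomach thus did not differ beyond counting error. The log2 difference, antrum minus corpus, was -2.998 (SE 0.21), in place 2 from the bottom of the genes tested, and the corpus mean was 7.24 ± 1.3 CPM (SD, n = 2).

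Esrrg was listed at 0 in both antrum libraries, stood at 1.52 and 3.02 CPM in the corpus and at 0.03 and 0 CPM in the forestomach. The corpus values were 56 and 144 reads, so corpus 2 was above corpus 1, and the only forestomach read was 1 in forestomach 1. The corpus mean was 2.27 ± 1.06 CPM (SD, n = 2). The log2 difference, antrum minus corpus, was -1.67 (SE 0.24), in place 15 from the bottom.

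**Figure D1:**
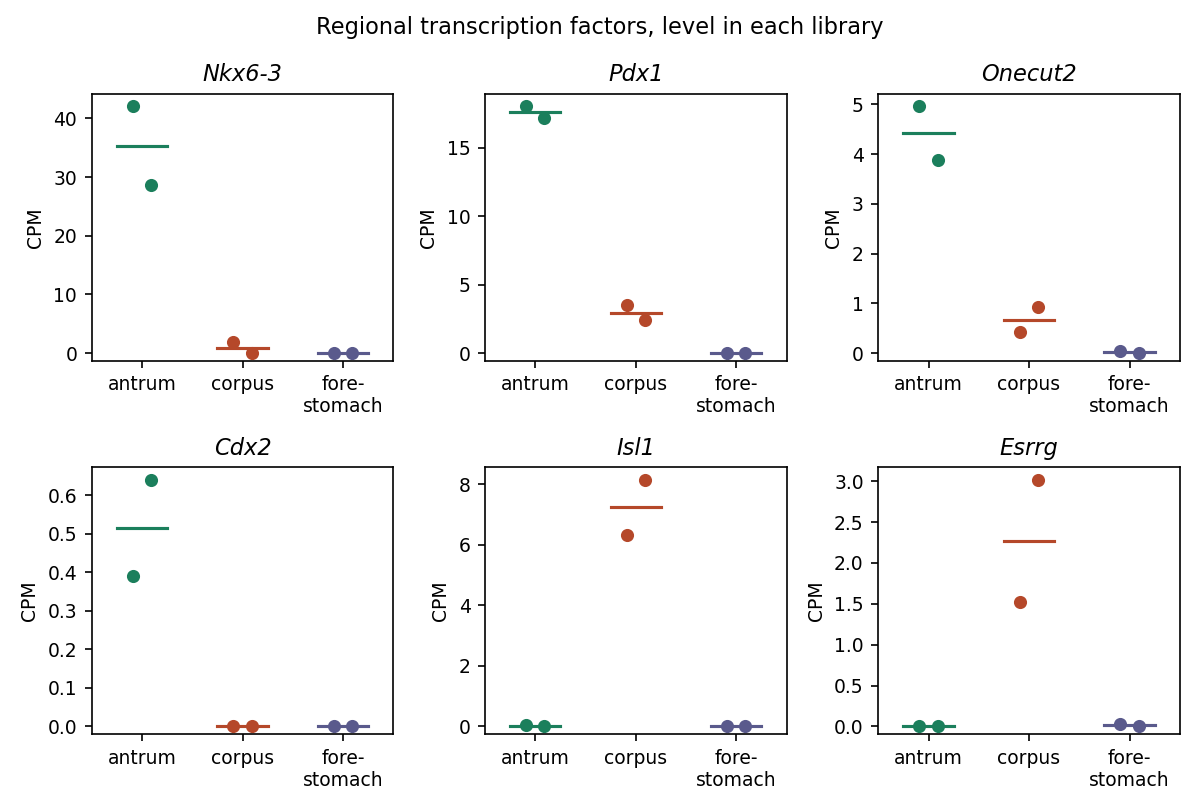
Level in CPM (vertical axis, linear, a scale of its own for each gene) of the 6 factors in every library, grouped by region. Points are libraries and bars are means of 2. Nkx6-3, Pdx1, Onecut2 and Cdx2 are highest in the antrum, Isl1 and Esrrg in the corpus, and no forestomach library exceeds 0.05 CPM.

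For all 6 genes the antrum and corpus libraries did not overlap, which holds for 50.7% of the genes tested, 45.4% with antrum higher and 5.32% with antrum lower. Since the genes were picked on this difference, the count carries no weight. Of the 11891 genes tested, 90 (0.757%) differed between antrum and corpus at an adjusted p under 0.05 in the limma fit, 66 (0.555%) higher and 24 (0.202%) lower in the antrum. That count was 28 without antrum 1, 33 without antrum 2, 31 without corpus 1, 19 without corpus 2, 26 without forestomach 1 and 25 without forestomach 2. The median log2 difference of all genes tested was 0.21. Scaling the libraries to a common median ratio took this median to 0.01 and left 67 genes, 42 of them higher in the antrum. The corpus libraries did not vary together over the factors. Nkx6-3 and Pdx1 were higher in corpus 1, and Onecut2, Isl1 and Esrrg were higher in corpus 2.

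The genes were picked on antrum against corpus, with forestomach as reference and earlier results of these data known. The comparison of glandular (antrum and corpus) with forestomach cultures may therefore not be independent of the choice of the genes. All 6 were near 0 in forestomach, and those tested reached 1 CPM through glandular libraries alone, so the filter fixed a higher glandular level, and their differences are given as values with no test. Glandular and forestomach libraries did not overlap for Nkx6-3, Pdx1, Onecut2 and Isl1 and overlapped for Cdx2 and Esrrg, and such separation holds for 59.4% of the genes tested. That of Isl1 rested on 1 read in each antrum library and that of Nkx6-3 on 3 reads in corpus 2, neither beyond counting error. Of all genes tested, 47.8% differed in this comparison, 21.1% being higher and 26.7% lower in glandular cultures. The log2 difference of Pdx1, glandular minus forestomach, was 3.10 (SE 0.21), made up of 4.22 in the antrum and 1.97 in the corpus (SE 0.24 each). That of Nkx6-3 was 2.98 (SE 0.36), a mean over an antrum difference of 5.16 and a corpus difference of 0.80 (SE 0.42 each). That of Onecut2 was 1.54 (SE 0.20), with differences of 2.40 in the antrum and 0.69 in the corpus (SE 0.23 each).

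For the factors of the corpus the difference from forestomach lay in the corpus libraries. That of Isl1 was 1.53 (SE 0.18), from an antrum difference of 0.04 and a corpus difference of 3.03 (SE 0.21 each). That of Esrrg was 0.81 (SE 0.21), from -0.02 in the antrum and 1.65 in the corpus (SE 0.24 each). Without the level filter Cdx2 could be fitted too, with a difference of 0.30 (SE 0.08). Gata4, a zinc finger factor of the glandular stomach, shows the contrast with a factor shared by both glandular regions: it had 73.1 and 51.9 CPM in antrum, 83.9 and 68.4 CPM in corpus and 0.08 and 0.17 CPM in forestomach libraries.

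**Figure D2:**
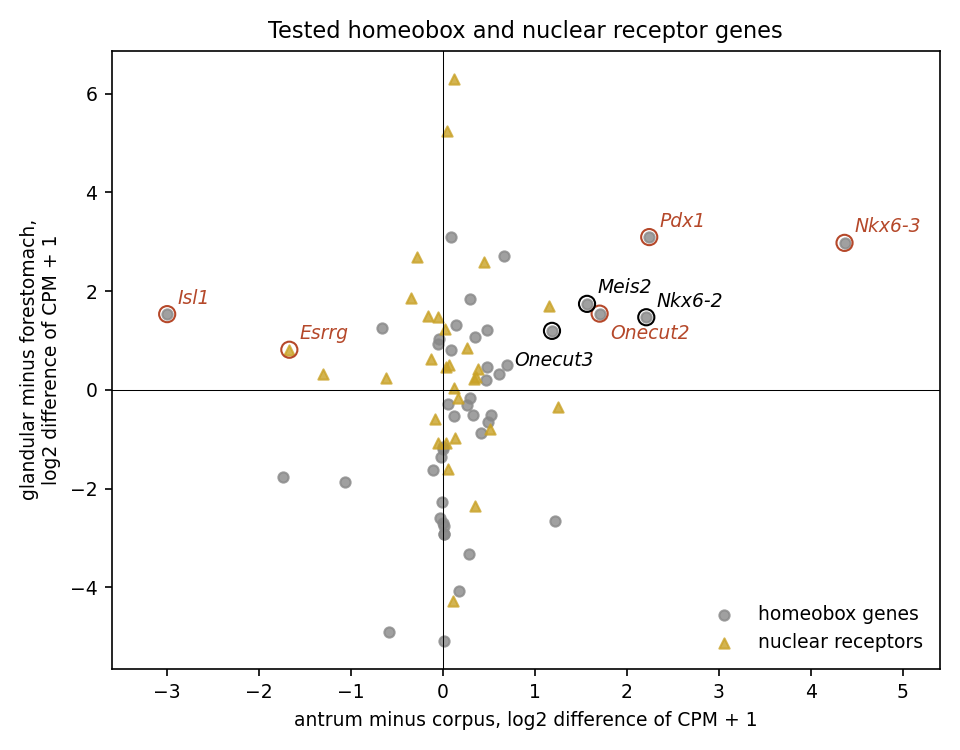
Log2 difference of CPM + 1, antrum minus corpus (horizontal axis) against glandular minus forestomach (vertical axis), for the tested homeobox genes (circles) and nuclear receptors (triangles). The 5 tested regional factors are ringed in red and 3 other genes that passed the antrum and corpus test in black. Nkx6-3 lies farthest right at 4.37 and Isl1 farthest left at -2.998, and most other points lie near 0 on the horizontal axis.

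Leaving aside genes that overlap them, Pdx1 and Cdx2 are adjacent genes of the table on chromosome 5. Between them lie 2 RefSeq genes that were not matched to the table. Nkx6-3 lies on chromosome 8, Onecut2 on 18, Isl1 on 13 and Esrrg on 1 (RefSeq, GRCm38.p6, used for names and gene order only since the submitters' processing notes name mm9). Promoter windows of 300 bases, 250 before and 50 after the transcription start, were found in RefSeq for 4 of the 6 genes. Those of Pdx1, Cdx2 and Isl1 are shown because the first pair are neighbours that share the antral pattern and Isl1 has the opposite one. Capitals mark TAAT, the core bound by homeodomain proteins, on either strand (ATTA on the printed one). All windows are on GRCm38.p6, printed 5′ to 3′ on the gene's own strand, with Pdx1 at chr5:147269847-147270146 (plus strand), Cdx2 at chr5:147307200-147307499 (minus strand) and Isl1 at chr13:116309639-116309938 (minus strand).
Pdx1: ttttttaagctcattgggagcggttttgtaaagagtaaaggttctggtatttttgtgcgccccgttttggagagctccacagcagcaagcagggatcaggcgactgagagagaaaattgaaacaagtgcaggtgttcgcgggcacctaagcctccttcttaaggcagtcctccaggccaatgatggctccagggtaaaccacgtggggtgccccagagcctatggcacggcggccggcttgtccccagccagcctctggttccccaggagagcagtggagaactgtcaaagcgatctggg
Cdx2: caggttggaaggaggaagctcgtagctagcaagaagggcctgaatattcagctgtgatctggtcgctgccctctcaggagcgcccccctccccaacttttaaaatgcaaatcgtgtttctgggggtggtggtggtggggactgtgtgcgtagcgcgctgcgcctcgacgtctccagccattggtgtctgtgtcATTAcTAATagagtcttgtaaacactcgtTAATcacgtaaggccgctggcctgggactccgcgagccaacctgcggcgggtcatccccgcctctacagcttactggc
Isl1: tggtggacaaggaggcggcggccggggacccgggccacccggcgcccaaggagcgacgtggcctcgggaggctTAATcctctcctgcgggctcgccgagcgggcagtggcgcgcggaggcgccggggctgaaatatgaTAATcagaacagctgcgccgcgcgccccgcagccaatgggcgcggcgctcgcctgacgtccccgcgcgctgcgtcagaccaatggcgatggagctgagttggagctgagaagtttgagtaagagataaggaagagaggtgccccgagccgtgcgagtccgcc
The core occurred 3 times in the Cdx2 window, 2 times in the Isl1 window and 0 times in the Pdx1 window, and 58% of 32851 RefSeq windows of this length hold at least 1. The 4 Esrrg windows held 1 to 5. Neither TTTATG, a CDX-type motif present in 11.9% of windows, nor AAGGTCA, the half-site of estrogen-related receptors present in 4.72%, occurred in any of these windows on either strand. A match is a string of letters and not a bound site.

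The nearest genes of the table on each side of the factors were compared, and up to 7 RefSeq genes not matched to the table lay between. RefSeq places the noncoding gene Plut (listed as 2210019I11Rik) over Pdx1. It stood at 5.86 and 6.97 CPM in antrum, 2.28 and 1.49 CPM in corpus and was listed at 0 in forestomach, the same order as Pdx1. No source used here says whether counting used strand. Reads of Pdx1 and Plut may therefore not be told apart, and no test is given. Before Pdx1, with 5 such genes between, Polr1d, a subunit of RNA polymerases I and III, stood at 40.2 and 36.1 CPM in antrum and 37.1 and 33.9 CPM in corpus. Ank1, a membrane skeleton gene directly before Nkx6-3, also ran antrum over corpus over forestomach. It stood at 6.81 and 5.63 CPM in antrum, 3.42 and 1.2 CPM in corpus and 0.11 and 0 CPM in forestomach, a log2 difference between antrum and corpus of 1.21 (SE 0.32) that did not pass (limma, adjusted p = 0.213). The neighbours Gpat4 (listed as Agpat6), Pan3, Wdr7, Fech, Parp8, Gpatch2 and Kctd3 did not pass between antrum and corpus either, with log2 differences between -0.30 and 0.38.

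The closest relatives of the factors divided into those that shared the regional pattern and those that did not. Of 9 paralogs 5 were in the table and 3 were tested. Of these, Nkx6-2 and Onecut3 reached 1 CPM through antrum libraries alone. The filter therefore fixed their higher antrum level, and their p-values below are no support for it. Nkx6-2, a relative of Nkx6-3 best known from the nervous system, stood at 6.74 and 3.6 CPM in antrum, 0.57 and 0.06 CPM in corpus and was listed at 0 in forestomach. Like Nkx6-3 it was higher in corpus 1 than in corpus 2. It rose in the antrum by 2.21 on the log2 scale (SE 0.29, limma, adjusted p = 0.0122), a call lost without antrum 1, corpus 2, forestomach 1 or forestomach 2 (adjusted p up to 0.113). Onecut3, a relative of Onecut2, stood at 2.89 and 2.07 CPM in antrum, 0.65 and 0.4 CPM in corpus and was listed at 0 in forestomach. It rose by 1.19 (SE 0.21, limma, adjusted p = 0.0435), a call lost without any 1 of the 6 libraries (adjusted p = 0.101 to 0.356), with the replicate block (adjusted p = 0.121), and in 11 of 13 alternatives in all (0.0433 to 0.356).

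The other relatives were flat or silent. Nkx6-1, the pancreatic beta cell member of its family, was listed at 0 in both antrum libraries and reached at most 0.02 CPM in corpus and 0.2 CPM in forestomach. Esrra, a broadly expressed relative of Esrrg, stood at 45.7 and 23.8 CPM in antrum, 39.2 and 23.5 CPM in corpus and 31.7 and 29.8 CPM in forestomach, with a log2 difference between antrum and corpus of 0.12 (SE 0.37, limma, adjusted p = 0.943). Esrrb did not exceed 0.03 CPM in any library. Cdx1, Cdx4, Onecut1 and Isl2 had no row and are not analysed here. Paralogs are similar in sequence, and how the authors' counting treated reads that fit several genes is not given in the sources used here.

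**Figure D3:**
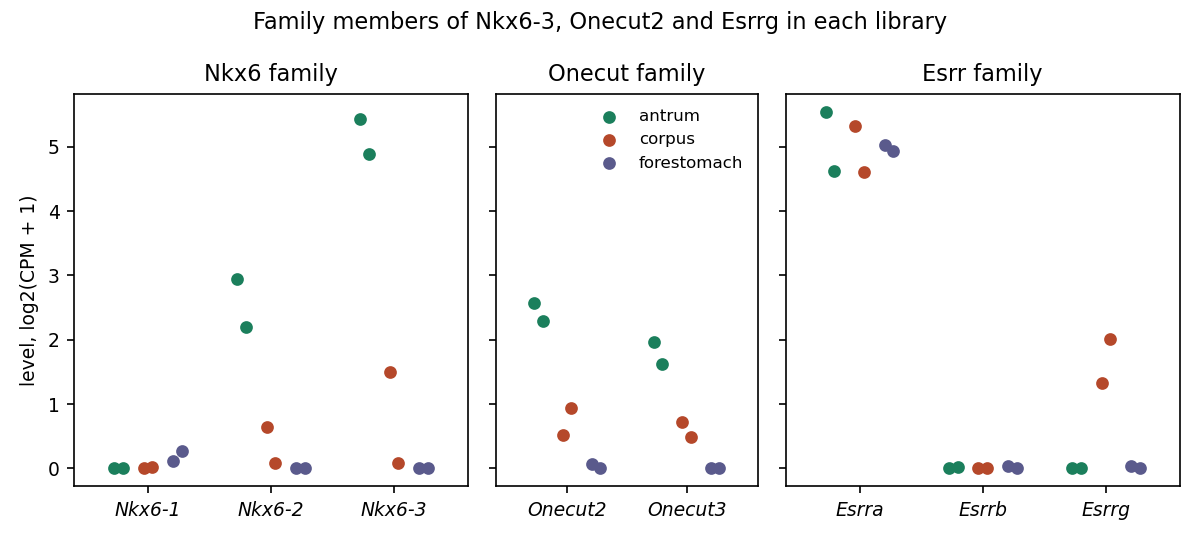
Level as log2(CPM + 1) (vertical axis) of Nkx6, Onecut and estrogen-related receptor (Esrr) family genes, with 1 point per library and regions by colour. Nkx6-2 and Onecut3 are highest in antrum libraries, as Nkx6-3 and Onecut2 are, whereas Esrra lies between 4.6 and 5.6 in all 6 libraries and Esrrg is raised in corpus alone.

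Other genes of the same classes were then compared between antrum and corpus, where 0.757% of all genes tested differed. Of 219 homeobox genes 98 were in the table and 46 were tested, 4 of them factors described above. Of the other 42, 3 rose in the antrum (Nkx6-2, Onecut3 and Meis2), 0 fell and 39 did not pass, with a median log2 difference of 0.13 against 0.21 over all genes tested. For Nkx6-2 and Onecut3 the filter had fixed the direction. Meis2, a partner of other homeodomain proteins, stood at 39.2 and 41.0 CPM in antrum, 12.1 and 13.7 CPM in corpus and 7.67 and 4.88 CPM in forestomach. Its log2 difference of 1.57 between antrum and corpus (SE 0.28, limma, adjusted p = 0.0435) was lost without any 1 of the 6 libraries (adjusted p = 0.0574 to 0.39), with the replicate block (adjusted p = 0.121), and in 12 of 14 alternatives in all (0.0388 to 0.39). Among those that did not pass, Irx5, an Iroquois factor, stood at 0.03 and 0 CPM in antrum, 4.2 and 1.22 CPM in corpus and 8.12 and 3.39 CPM in forestomach. Its log2 difference between antrum and corpus was -1.74 (SE 0.43, limma, adjusted p = 0.171), and that of its relative Irx3 was -1.06 (SE 0.29, limma, adjusted p = 0.22). Both were named after their values were seen.

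Between glandular and forestomach cultures the same 42 homeobox genes went both ways, 13 higher and 18 lower in glandular cultures. Over all genes tested 21.1% were higher and 26.7% lower. Irx1, a further Iroquois factor, fell most, by 5.08 on the log2 scale. It stood at no more than 0.02 CPM in a glandular library, against 49.8 and 21.7 CPM in forestomach. Irx1 and some others reached 1 CPM on 1 side of the comparison alone, so the filter fixed their direction. Of 49 nuclear receptors 38 were in the table, and 29 besides Esrrg were tested. None of these passed between antrum and corpus (median log2 difference 0.07). In glandular against forestomach cultures 10 were higher and 7 lower, beside the same 21.1% and 26.7% of all genes tested. Of 21 factors of stomach epithelium 18 were tested and 0 passed between antrum and corpus (median 0.10), beside 0.757% of all genes tested. Irx3, Irx5 and Hnf4g of this list did not overlap between the regions. Hnf4g, a nuclear receptor named after its values were seen, stood at 3.2 and 4.56 CPM in antrum, 1.03 and 1.34 CPM in corpus and was listed at 0 in forestomach, a log2 difference between antrum and corpus of 1.15 (SE 0.22, limma, adjusted p = 0.0645). By the rule of highest level, examples were the endoderm factor Hnf4a, at 99.98 and 65.8 CPM in antrum and 83.3 and 66.6 CPM in corpus, and Elf3, an epithelial ETS factor, at 155.3 and 123.8 CPM in antrum and 118.2 and 92.6 CPM in corpus. With a pseudocount of 0.1 in place of 1, 1 of the 18 passed.

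Genes were then ranked by how closely their profile over the 6 libraries followed each factor, as the root mean square difference of log2(CPM + 1) after each gene's own mean was removed. These genes were found by their pattern, so their levels are a description, and nothing about function or control follows. Nearest to Nkx6-3 was Slc9a3, the sodium-proton exchanger of absorptive epithelium, with a root mean square difference of 0.27 against a spread of 2.31 of Nkx6-3 itself. It stood at 33.9 and 41.8 CPM in antrum, 1.71 and 0.34 CPM in corpus and 0.03 and 0.02 CPM in forestomach, so it was also higher in corpus 1 than in corpus 2. Next came Prap1, at 21.3 and 18.1 CPM in antrum and 0.16 and 0.06 CPM in corpus, and Clca3, at 22.7 and 29.2 CPM in antrum and 1.06 and 1.57 CPM in corpus.

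The genes nearest to Pdx1 were BC030476, Odz1 (a teneurin) and Samd5, at differences of 0.18, 0.21 and 0.22. Those nearest to Onecut2 were the guidance cue gene Ntn1, Meis2 and the serine protease gene Prss32, at 0.20, 0.22 and 0.22. Those nearest to Isl1 were Bpifb1, a secreted defence protein, the apolipoprotein gene Apoa1 and the aminopeptidase gene Anpep, at 0.20, 0.20 and 0.35. Bpifb1 stood at 0.46 and 0.28 CPM in antrum, 7.79 and 8.04 CPM in corpus and was listed at 0 in forestomach. Anpep stood at 4.62 and 7.4 CPM in antrum, 44.5 and 51.7 CPM in corpus and 10.1 and 6.44 CPM in forestomach, so unlike Isl1 it was present in all 3 regions. Nearest to Esrrg were Try5, BC030870 and Gsdma2, at 0.19, 0.21 and 0.26, all of them higher in corpus 2 than in corpus 1, as Esrrg was. Cdx2 is too flat on this scale, with a spread of 0.29, for its nearest genes to be informative.

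**Figure D4:**
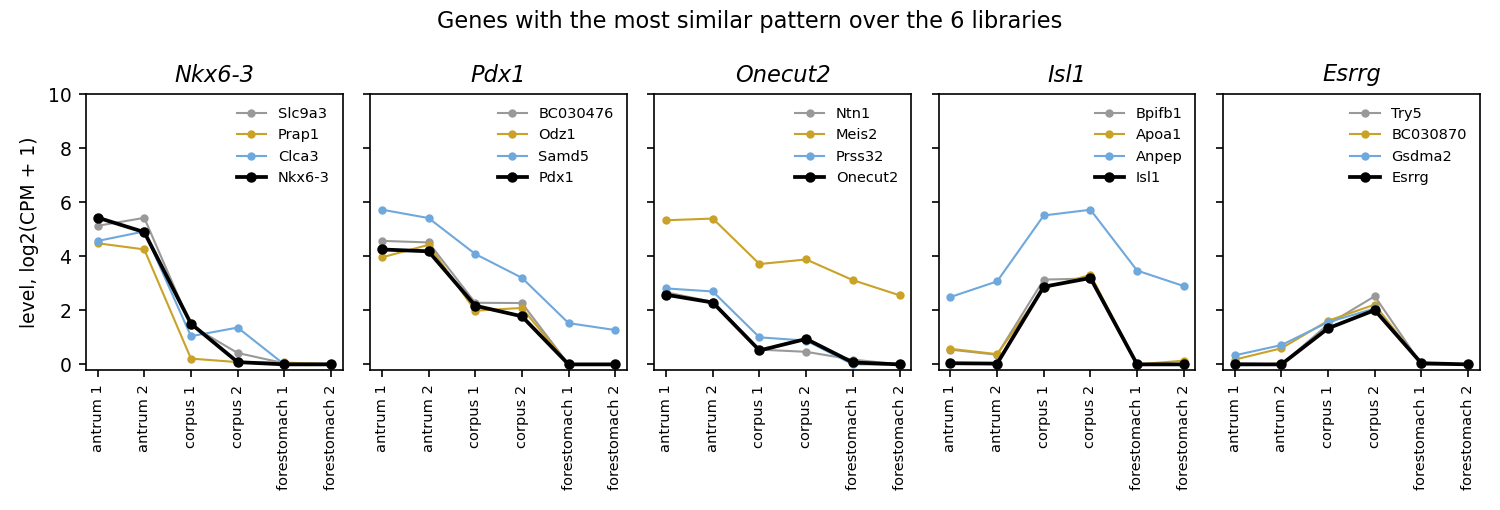
Level as log2(CPM + 1) (vertical axis) in each library (horizontal axis) for 5 factors (black) and the 3 tested genes whose pattern over the 6 libraries was most like each. Lines join the libraries for the eye alone. Slc9a3 follows Nkx6-3 from antrum through corpus to forestomach, and Bpifb1 and Apoa1 peak in the corpus libraries as Isl1 does.

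Cdx2 is known for switching on intestinal genes, and of 26 such genes 14 were in the table and 8 were tested. Slc9a3 and Gpa33, a surface antigen of intestinal epithelium, rose in the antrum, 0 fell and 6 did not pass (median log2 difference 0.48, against 0.21 over all genes tested). Over all genes tested 0.555% rose and 0.202% fell in the antrum. This list was chosen with earlier results of these data known, so its count is a description. Slc9a3 rose by 4.34 (SE 0.33, limma, adjusted p = 0.00066) and passed in all 14 alternatives (adjusted p = 0.000229 to 0.0487). Gpa33 stood at 97.3 and 80.0 CPM in antrum, 24.2 and 19.5 CPM in corpus and 1.72 and 1.51 CPM in forestomach, and rose by 1.97 (SE 0.26, limma, adjusted p = 0.0123). Its call was lost without any 1 of the 6 libraries (adjusted p = 0.0508 to 0.204). The brush border gene Vil1, at 171.2 and 145.9 CPM in antrum and 79.1 and 53.1 CPM in corpus, did not pass (limma, adjusted p = 0.112). Tff3 of the same list ran the other way without overlap, at 0.77 and 1.36 CPM in antrum and 3.31 and 1.93 CPM in corpus. Its log2 difference was -0.80 (SE 0.25, limma, adjusted p = 0.338), and it was named after its values were seen. Alpi, the brush border alkaline phosphatase gene, and the membrane mucin gene Muc13 were listed at 0 in all libraries, and the 3 enterocyte markers in the table summed to at most 0.28 CPM in any library.

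Pdx1, Nkx6-3 and Isl1 are known in endocrine cells. Of 25 enteroendocrine genes 24 were in the table, 9 were listed at 0 in all libraries and 2, Insm1 and Ddc, were tested. The zinc finger factor Insm1 stood at 3.33 and 1.34 CPM in antrum, 3.55 and 2.41 CPM in corpus and was listed at 0 in forestomach. The amine-synthesis enzyme gene Ddc stood at 3.3 and 4.31 CPM in antrum, 1.49 and 0.8 CPM in corpus and 0.05 and 0.02 CPM in forestomach. Neither passed between antrum and corpus (limma, adjusted p = 0.838 and 0.0711). Both reached 1 CPM through glandular libraries alone, so the filter fixed their higher glandular level, and no test of it is given. Neurog3 and Neurod1, the factors that start endocrine fate, were listed at 0 in all 6 libraries, and Chga did not exceed 0.02 CPM. The 7 enteroendocrine markers summed to 1.66 to 3.59 CPM in antrum, 2.95 to 3.77 CPM in corpus and 0 to 0.27 CPM in forestomach libraries, most of it Insm1 in the glandular ones, and their part in the levels of the factors was not tested. Of 13 beta cell genes 5 were in the table and 2 were tested, and neither passed between antrum and corpus. Abcc8, a subunit of the beta cell potassium channel, stood at 2.32 and 1.75 CPM in antrum and 1.06 and 1.41 CPM in corpus.

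Esrrg is known in acid-secreting parietal cells. Of 19 acid secretion genes 17 were in the table and 10 were tested. Of these 0 rose and 1, Gif, fell in the antrum (median log2 difference 0.00, against 0.21 over all genes tested). Over all genes tested 0.555% rose and 0.202% fell. This list too was chosen with earlier results of these data known. Gif, the intrinsic factor gene, stands in both marker lists, of parietal and of chief cells, and is not particular to acid-secreting cells. It stood at 11.1 and 23.9 CPM in antrum, 99.3 and 201.5 CPM in corpus and was listed at 0 in forestomach. It fell by 3.04 (SE 0.42, limma, adjusted p = 0.015), a call lost without antrum 1, corpus 2, forestomach 1 or forestomach 2 (adjusted p up to 0.124) and with no level filter (0.0635). Ppargc1a, a coactivator of estrogen-related receptors, stood at 24.99 and 22.7 CPM in antrum, 33.5 and 39.4 CPM in corpus and 0.64 and 0.05 CPM in forestomach, and did not pass between antrum and corpus (limma, adjusted p = 0.697). Of 21 tested mitochondrial genes linked to these receptors 0 passed between antrum and corpus (median 0.25). In glandular against forestomach cultures 3 fell and 0 rose, where 26.7% of all genes tested fell and 21.1% rose.

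Some products of the gland regions also differed between antrum and corpus, and most of those tested did not pass. Over all genes tested 0.555% rose and 0.202% fell in the antrum, with a median log2 difference of 0.21. The lists of products were chosen with earlier results of these data known, so their counts are a description and no independent support. Of 7 tested corpus products 4 fell in the antrum, 0 rose and 3 did not pass (median log2 difference -2.13). Those that fell were Gif and 3 others. The pepsinogen gene Pgc fell by 2.14 (SE 0.26, limma, adjusted p = 0.00685), and the gastrokine genes Gkn2 and Gkn1 fell by 2.25 and 2.13 (SE 0.32 and 0.34, limma, adjusted p = 0.0182 and 0.0303). Both gastrokine genes also stand among the glandular markers and are not particular to the corpus. In antrum libraries Gkn2 stood at 374.7 and 228.9 CPM and Gkn1 at 276.3 and 151.3 CPM. Pgc stood at 307.2 and 345.9 CPM in antrum and 1374 and 1516 CPM in corpus, and its call was lost without any 1 of the antrum or corpus libraries (adjusted p up to 0.115). The gastrokine calls were lost without any 1 of the 6 libraries (adjusted p up to 0.308) and with the replicate block (0.0956 for Gkn2 and 0.117 for Gkn1). Of 8 tested antral products 2 rose, the membrane mucin gene Muc4 by 1.70 (SE 0.20, limma, adjusted p = 0.00685) and the gastrokine gene Gkn3 by 1.60 (SE 0.25, limma, adjusted p = 0.0256), 0 fell and 6 did not pass (median 0.52). Of those 6, the gland mucin gene Muc6 stood at 52.4 and 52.2 CPM in antrum and 82.7 and 91.0 CPM in corpus, and the stem cell gene Lgr5 at 9.55 and 11.9 CPM in antrum and 14.1 and 15.8 CPM in corpus. Both were lower in the antrum libraries without overlap, by log2 differences of -0.72 and -0.45 (limma, adjusted p = 0.403 and 0.741), and were named after their values were seen. The call of Muc4 was lost without antrum 1, corpus 1 or corpus 2 (adjusted p up to 0.0712). That of Gkn3 was lost without any 1 of the antrum or corpus libraries (adjusted p up to 0.326) and with the replicate block (0.062). In fits without 1 library the number of genes that passed was 0 or 1 for the corpus, acid secretion, paralog and homeobox lists, 0 to 2 for the antral list and 1 for the intestinal list.

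**Figure D5:**
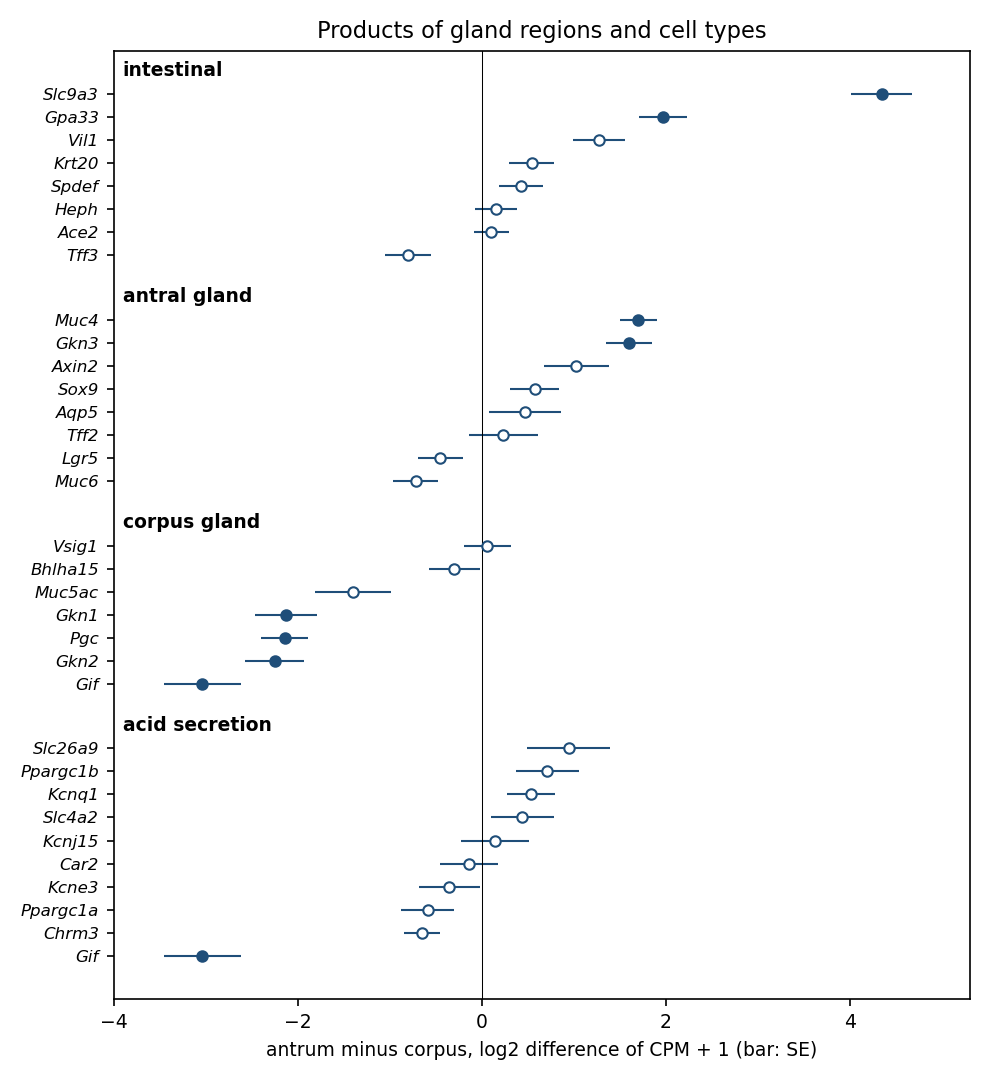
Log2 difference of CPM + 1, antrum minus corpus (horizontal axis, bars are SE), for the tested genes of 4 lists. Filled points passed the test at an adjusted p under 0.05 and open points did not. Slc9a3 at 4.34 and Gif at -3.04, which stands in 2 lists, are the extremes.

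Markers of other cells were measured because Isl1, Pdx1 and Cdx2 also act outside gastric epithelium. Of the 9 factors of the embryonic pyloric mesenchyme 6 were in the table, and Barx1, Six2, Tcf21 and Foxf1 were listed at 0 in all 6 libraries. Gata3, which acts with Isl1 in the embryonic pylorus of the mouse, did not exceed 0.08 CPM in a glandular library and stood at 6.42 and 1.68 CPM in forestomach. The 8 fibroblast markers summed to 50.9 to 56.5 CPM in antrum, 37.1 to 79.5 CPM in corpus and 0.12 to 0.29 CPM in forestomach libraries, so antrum and corpus overlapped, while glandular libraries stood above forestomach. Col1a1 was at 15.4 and 12.9 CPM in antrum and 19.8 and 9.63 CPM in corpus. The 3 markers of enteric neurons and glia in the table summed to 1.36 to 2.58 CPM in antrum, 1.57 to 2.77 CPM in corpus and 25.9 to 27.1 CPM in forestomach, where nearly all of it was Tubb3. Of 8 pancreatic acinar markers 2 were in the table, with Cel at most at 0.03 CPM and Cela1 at 6.53 and 8.1 CPM in antrum and 4.37 and 5.02 CPM in corpus. The part of fibroblasts in the levels of the factors, between antrum and corpus or against forestomach, was not tested.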

How the data were processed

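Libraries were prepared with a Ribo-Zero kit, which removes ribosomal RNA, per the labels' protocols. What the authors deposited is a table in CPM, rounded to 2 decimals, with 6 libraries and 2 per region. The submitters' processing notes name STAR, HTSeq, DESeq2, edgeR and build mm9, with no version or role. For the annotation and the use of strand, no source used here has a statement. Columns name a region and a number that no label ties to a sample ID, so each was assigned to its region. Of 15450 rows, 19 whose symbols had become dates were left out. Library totals were inferred from the steps of the low CPM values, of which 100% below 200 CPM were whole reads within 0.0051 CPM (about 40% to 52% with a wrong step). The listed rows held 33.1% to 48.3% of the library totals.

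A gene was tested if 2 or more libraries held it at 1 CPM or above. Version 3.58.1 of limma (R 4.3.3) modelled log2(CPM + 1) in 1 fit with 3 group means, an intensity trend and no block (3 residual and 6.1 prior degrees of freedom), two-sided, with Benjamini-Hochberg adjustment over all 11891 genes at 0.05. The log2 scale with a pseudocount understates changes of genes with low levels. Of 15431 genes 14294 were matched to RefSeq (GRCm38.p6), and no coordinates were converted. Genes named as examples were the up to 4 of each list with the largest change among those that passed, otherwise those with the highest mean level, some silent or open genes of the lists being added after their values were seen. The factors and lists were chosen with earlier results of these data known, so counts over the lists are a description and no independent support.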

Additional observations from a re-analysis of the deposited data

How the results depend on the processing

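The count of genes that differed between antrum and corpus was 90. It was 54 with no level filter, 57 after scaling to the listed rows, and 19 to 33 when 1 library was left out, where the lone library of a region is assumed to vary like the others. Pseudocounts of 0.1 and 0.5 gave 64 and 76, a filter of 5 CPM 66 and median ratio scaling 67, with 62.7% of calls higher in the antrum against 73.3%. With the column number as a replicate block the count was 33, and 37 with the forestomach numbers crossed, an alternative chosen after seeing the data. Same-numbered libraries deviated together in antrum and corpus (r = 0.614 across genes) and not with forestomach (r = -0.106 for antrum and -0.0602 for corpus), and the columns share only a number. The cause of these changes was not tested. For glandular against forestomach, 5683 genes differed, and 4349 to 6328 in the alternatives, with the block at 6188. Of these 44.1% were higher, against 54.9% after median ratio scaling, 54.7% after scaling to the listed rows, 56.7% without forestomach 1 and 35.5% without forestomach 2.

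Between antrum and corpus the log2 difference ranged over the alternatives from 3.65 to 5.97 for Nkx6-3, 2.05 to 2.55 for Pdx1, 1.49 to 2.61 for Onecut2, -5.87 to -2.84 for Isl1 and -4.49 to -1.33 for Esrrg, the largest sizes coming with a pseudocount of 0.1. The factors were picked for this difference, so its direction is no sign of stability. The planned count test on recovered reads was not run. Onecut2 and Esrrg fell below the filter of 5 CPM and had no value there.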
